A study of Homo sapiens with 6 samples.

Results

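The genes of ribosome biogenesis and of RNA polymerase I (Pol I) were examined in A2058 cells after silencing of CT16. They were chosen by symbol, as probes whose platform symbol begins with RRP, UTP, NOP, NOL or POLR1 followed by a digit or a letter from A to E, together with FBL, NCL, NPM1, DKC1, BOP1, PES1, WDR12, NHP2, GAR1 and UBTF. This gave 53 genes with 56 probes, of 16225 named genes with 18468 probes on the array. Of the 53 genes, 48 (51 probes) had a signal above background, which is a detection p under 0.05 against the negative control beads, on at least 3 of the 6 arrays, and these 48 genes were tested. The remaining 5 genes were not tested, since NOL4, NOL10, RRP1 and UTP15 were above background on 0 arrays and POLR1A on 1 array.

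A2058 is an established human melanoma cell line, and CT16, the product of PAGE5, is a cancer-testis antigen, a protein found mainly in testis and in tumours. CT16 siRNA or control siRNA was given for 48 h to 3 separate cultures each, and the total RNA of each culture was hybridised to an Illumina Sentrix Human-6 array of 1 colour. The comparison asks which transcripts differ when CT16 is silenced. Both groups share the cell line and the transfection with an siRNA, and the methods name a single CT16 siRNA for this experiment, so effects of that siRNA outside CT16 cannot be told apart from those of silencing.

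The number of arrays limits the precision, and with 3 arrays per group the smallest p of an exact permutation test is 0.1. Between 11311 and 13110 probes were above background on an array, and the median signal lay between 164.4 and 190.6. On the leading principal component (71.8% of the variance) CT16 siRNA replicate 1 stood apart with a score of 37.5, whereas the other 5 arrays scored between -21.1 and 9.03. The PAGE5 probe was above background on 0 arrays, so the silencing could not be read from it. The paper reports a check apart from these arrays, in which its CT16 siRNAs lowered CT16 mRNA in A2058 cells. Of the melanocytic markers, PMEL, SOX10, TYR, EDNRB and MITF were above background on 6 arrays, S100B on 4 and MLANA on 1. Their summed signal before normalization was 8022 to 9643 with CT16 siRNA and 9508 to 10829 with control siRNA. After normalization 4 of the 6 tested had a lower and 2 a higher mean with CT16 siRNA. The log2 differences ran from -0.62 for EDNRB to 0.21 for MITF. Of 5 fibroblast markers, LUM was above background on 6 arrays and DCN on 5, COL1A1 on 2, and COL1A2 and COL3A1 on 0. Before normalization the list summed to 1212 to 2052 with CT16 siRNA and 1111 to 1339 with control siRNA. LUM was highest on CT16 siRNA replicate 1. None of the 3 leukocyte and 2 keratinocyte markers on the array were above background on at least 3 arrays. The part of these markers in the differences below was not tested.

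Ribosomes are assembled in the nucleolus, where Pol I transcribes a long precursor RNA that is cut and modified into the mature rRNAs. The small subunit processome, built around the U3 small nucleolar RNA, releases the 18S rRNA, and other assembly factors mature the large subunit. Box C/D and box H/ACA ribonucleoproteins guide methylation and pseudouridylation of the rRNA, and the output of the whole pathway is coupled to cell growth. The arrays measured the transcripts of these factors, not the synthesis or the processing of rRNA. In total RNA of a culture, fewer cells with a transcript and less transcript per cell cannot be told apart.

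Ribosome biogenesis genes showed no common direction with CT16 siRNA when all 6 arrays were used. Of the 48 genes tested, 24 had a higher and 24 a lower mean log2 signal with CT16 siRNA, and the median log2 difference (CT16 siRNA minus control siRNA) was 0.01, with quartiles of -0.10 and 0.16. Over all 12082 probes tested the median was 0.00 and the quartiles were -0.13 and 0.13. The lowest member was RRP7A at -0.51 and the highest was NOP58 at 0.74. The split by sign depended on scaling and on CT16 siRNA replicate 1. When the arrays were shifted to a common median in place of quantile normalization, the median of all probes moved to 0.10. In that setting 9 of the 48 members were below 0, and 19 were below the median of all probes. Without CT16 siRNA replicate 1, 32 members were above and 16 below 0. Their median was then 0.10, against 0.01 for all probes, and 17 members were below the median of all probes.

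With limma, which shrinks the variance of each probe towards that of the others, 0 of the 48 members and 0 of the 12082 probes (0.0%) passed an adjusted p of 0.05, and the smallest adjusted p of any probe was 0.202. At an unadjusted limma p under 0.05, 5 members (10.4%) were higher with CT16 siRNA, against 4.39% of all probes, and 1 member (2.08%) was lower, against 5.17% of all probes. The 5 were NOL11, NOP58, RRP15, UTP18 and UTP3, and the 1 was NOP53. All 3 values with CT16 siRNA lay above all 3 with control siRNA in 2 members, NOL11 and UTP18 (4.17%), against 7.39% of all probes. They lay below in 2 members, NOP53 and POLR1C (4.17%), against 8.95% of all probes. These counts are of quantile-normalized values. In the signals before normalization the groups overlapped for NOL11, NOP53 and POLR1C, but not for UTP18. Without CT16 siRNA replicate 1, a view added after the data had been seen, 6 members lay above, where 11.2% of all probes did, and 2 lay below, where 11.2% of all probes did.

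The rank product is the test named in the methods of the study. It ranks the probes by each of the 9 pairwise ratios between arrays and sets the product of the ranks against permuted ranks. At a false discovery rate (FDR) under 0.1, 1 of the 48 members (2.08%) was higher with CT16 siRNA, namely NOP58, where 190 of 47289 probes (0.402%) were higher. Likewise 1 member (2.08%) was lower, namely RRP7A, where 202 probes (0.427%) were lower. The 47289 probes were not filtered for a signal above background, whereas the 48 members were, so these shares are not like for like. RRP7A had been picked out by the study from these same arrays together with a separate experiment of CT16 overexpression. Its values here are therefore a description and its test is not independent evidence.

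**Figure D1:**
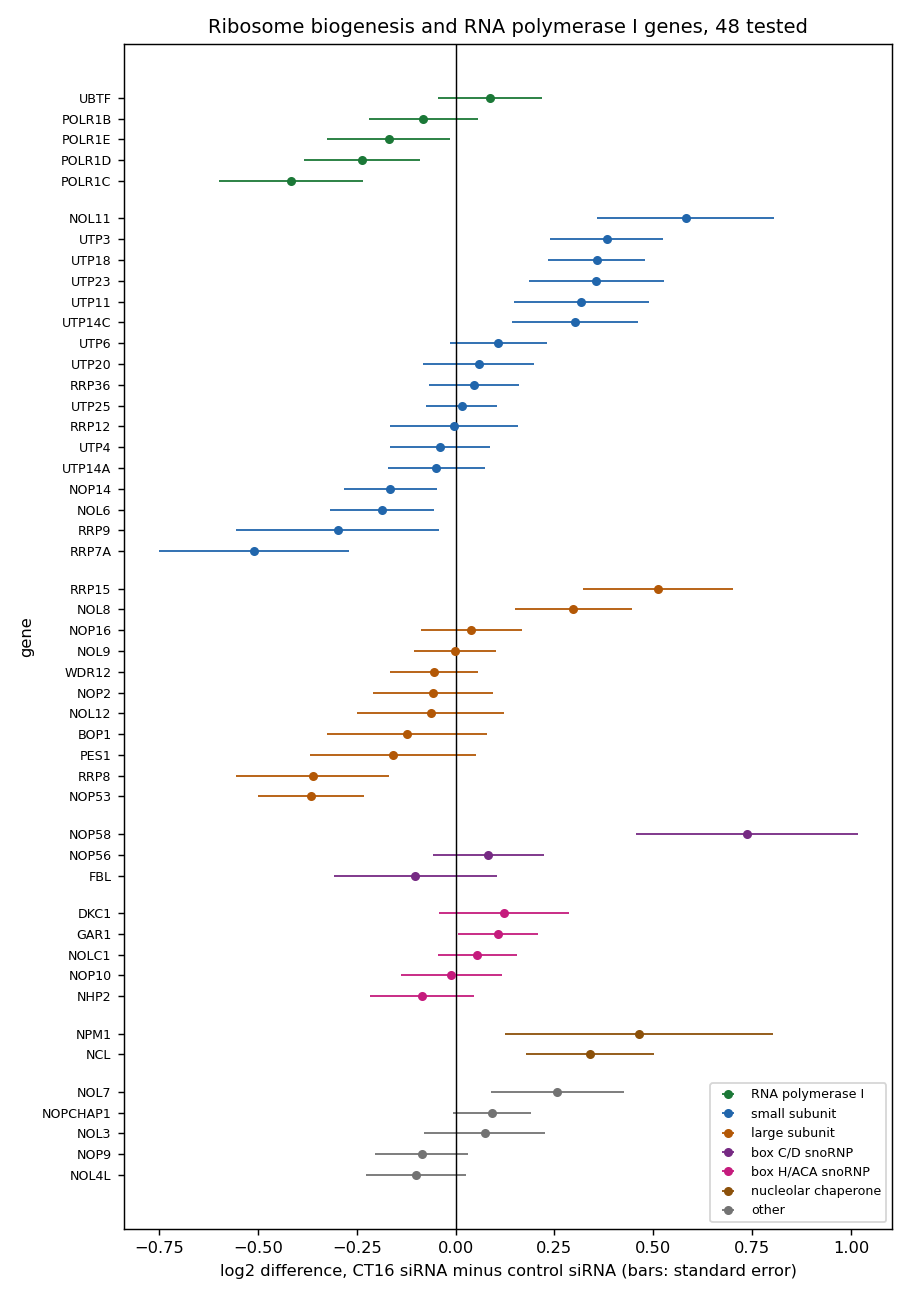
Log2 difference (CT16 siRNA minus control siRNA, x axis) of each of the 48 genes tested (y axis), grouped by role. Points are the limma estimates and bars the standard error with 3 arrays per group. RRP7A at -0.51 and NOP58 at 0.74 are the ends of the range, and 24 genes lie on each side of 0.

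**Figure D2:**
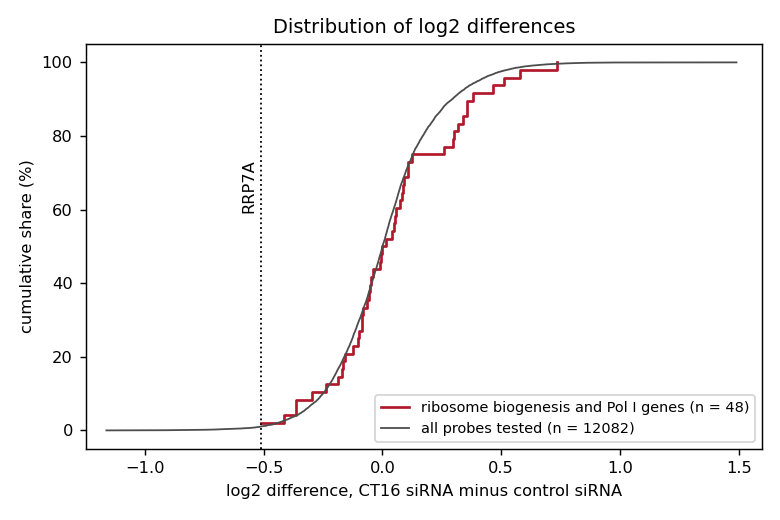
Cumulative share of log2 differences (CT16 siRNA minus control siRNA, x axis) for the 48 genes (stepped line) and for all 12082 probes tested (smooth line), with RRP7A at the dotted line. The curves cross 50% close to 0, and the curve of the 48 genes runs below that of all probes between about the upper quartile of the genes and their highest value.

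The proximal promoters of RRP7A, the member the study singled out, and of the members without overlap between the groups are shown. The sequences are those of RefSeq on GRCh38.p14 and run 5′ to 3′ over the gene's strand from 250 bases before to 50 bases after the start. The windows were searched on both strands for the E-box CACGTG, which MYC and its relatives bind, for the ETS motif CCGGAAG and for the YY1 motif AAGATGG, and matches are in capitals. The ETS and YY1 motifs can share the letters AAG. NOL11 has a window without a match and is not printed.
RRP7A, chr22:42519747-42520046, minus strand: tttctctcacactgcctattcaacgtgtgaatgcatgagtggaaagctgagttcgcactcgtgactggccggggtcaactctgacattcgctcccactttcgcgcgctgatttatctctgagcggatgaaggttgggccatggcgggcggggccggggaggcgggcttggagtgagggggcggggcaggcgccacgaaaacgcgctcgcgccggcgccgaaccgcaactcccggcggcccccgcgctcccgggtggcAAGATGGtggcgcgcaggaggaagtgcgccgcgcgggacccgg
POLR1C, chr6:43516839-43517138, plus strand: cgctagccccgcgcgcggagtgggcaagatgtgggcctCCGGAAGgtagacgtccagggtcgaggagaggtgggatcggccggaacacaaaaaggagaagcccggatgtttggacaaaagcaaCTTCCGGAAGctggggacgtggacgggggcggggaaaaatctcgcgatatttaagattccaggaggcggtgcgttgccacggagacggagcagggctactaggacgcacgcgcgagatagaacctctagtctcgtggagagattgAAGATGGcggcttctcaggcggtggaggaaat
NOP53, chr19:47745296-47745595, plus strand: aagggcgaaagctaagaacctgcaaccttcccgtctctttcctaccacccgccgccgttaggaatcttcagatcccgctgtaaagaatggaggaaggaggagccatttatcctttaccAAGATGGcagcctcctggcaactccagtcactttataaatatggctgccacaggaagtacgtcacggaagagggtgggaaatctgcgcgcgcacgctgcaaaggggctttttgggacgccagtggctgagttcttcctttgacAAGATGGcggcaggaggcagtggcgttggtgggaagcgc
UTP18, chr17:51260296-51260595, plus strand: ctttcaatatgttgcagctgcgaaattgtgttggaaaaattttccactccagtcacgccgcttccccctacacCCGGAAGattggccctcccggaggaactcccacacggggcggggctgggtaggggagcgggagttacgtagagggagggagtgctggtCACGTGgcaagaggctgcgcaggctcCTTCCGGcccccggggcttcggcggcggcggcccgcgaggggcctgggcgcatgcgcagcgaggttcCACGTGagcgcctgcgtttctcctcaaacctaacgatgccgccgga

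The RRP7A window held 1 YY1 match, beginning at base 8 of the transcript. POLR1C held 3 ETS matches, of which 2 overlap as a palindrome, and 1 YY1 match. NOP53 held 2 YY1 matches, and UTP18 held 2 E-boxes and 2 ETS matches. Promoter windows were found for 46 of the 53 members. The E-box occurred in 15 of these genes (32.6%), against 7.26% of 35116 windows of all genes and 13.4% of the 7459 tested genes that have a window. The ETS motif also occurred in 15 genes (32.6%), against 10.3% of all windows and 23.0% of tested genes, and the YY1 motif in 5 genes (10.9%), against 5.84% and 10.1%. Among members with a window, E-boxes were present in 9 of 21 with a lower and in 6 of 21 with a higher mean after CT16 siRNA. The ETS motif was present in 8 of the lower and 7 of the higher genes and the YY1 motif in 4 of the lower and 1 of the higher genes, and these splits were not tested. A match is a run of letters and does not show that a factor binds there.

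Among the Pol I genes chosen by the symbol rule, 4 of 5 tested were below 0 and the median log2 difference was -0.17. The count was also 4 of 5 without CT16 siRNA replicate 1 (median -0.07), and with 1 array left out it was lowest, 3 of 5, without CT16 siRNA replicate 3 and highest, 5 of 5, without control siRNA replicate 1. After a median shift, which raised the median of all probes to 0.10, 2 of 5 (POLR1C and POLR1D) were below 0 and 3 of 5 were below that median. POLR1C, a subunit that Pol I shares with RNA polymerase III, had log2 signals of 9.53, 10.05 and 10.22 with CT16 siRNA and 10.23, 10.50 and 10.31 with control siRNA. All 3 arrays with CT16 siRNA thus lay below all 3 with control siRNA, though CT16 siRNA replicate 3 by only a small margin. Before normalization CT16 siRNA replicates 2 and 3 (1122 and 1239) were above control siRNA replicate 1 (1077). The difference was -0.42 (standard error 0.18), or 1.33-fold lower, with a limma adjusted p of 0.522. POLR1D, another subunit shared with RNA polymerase III, had 2 probes, at -0.24 (standard error 0.15) and -0.08 (standard error 0.09). POLR1E was at -0.17, POLR1B, the second largest subunit of Pol I, at -0.08, and UBTF, which binds the rDNA promoter and opens its chromatin, at 0.09. POLR1A, the catalytic subunit, gave no value, because its probe was above background on 1 array. The Pol I subunits POLR1F, POLR1G and POLR1H fall outside the symbol rule and are not in these counts. They were at 0.47, 0.07 and -0.18 (standard error 0.36, 0.16 and 0.31).

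RRP7A is the human counterpart of yeast Rrp7, which joins the small subunit processome and is needed there to make 18S rRNA. Its 1 probe had signals before normalization of 586.6, 764.1 and 974.5 with CT16 siRNA replicates 1, 2 and 3, and 833.2, 1236 and 879.4 with control siRNA replicates 1, 2 and 3. After normalization the log2 signals were 9.03, 9.49 and 9.89 with CT16 siRNA and 9.86, 10.34 and 9.75 with control siRNA. The groups overlapped, since CT16 siRNA replicate 3 was above control siRNA replicates 1 and 3. The mean was 9.47 ± 0.43 with CT16 siRNA and 9.98 ± 0.31 with control siRNA (SD, n = 3 each), a log2 difference of -0.51 (standard error 0.24), or 1.42-fold lower. The limma adjusted p was 0.533 and the unadjusted p was 0.0684, while the rank product FDR for lower values was 0.0736. That FDR was 0.00426 without CT16 siRNA replicate 3 and between 0.150 and 1.08 when any other single array was left out (an estimated FDR can exceed 1), so the call held in 1 of these 6 settings. It was also lost with only the probes above background (0.194), after a median shift (0.504) and with neqc background correction (0.587). RRP7BP, a pseudogene on chromosome 22, is a near copy of RRP7A, and whether the probe also binds its transcript was not tested.

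RRP7A was the lowest of the 48 members. The median of the other 47 was 0.02, which put RRP7A 0.53 below it on the log2 scale, and the next lowest member was POLR1C at -0.42. Of all 12082 probes, 130 (1.08%) had a lower difference than RRP7A. The gap to the median of the others was between -0.74 and -0.35 when 1 array was left out, and between -0.66 and -0.47 under the other alternatives. The rank was less stable. Without control siRNA replicate 2, RRP7A was at -0.331, above POLR1C at -0.341 and NOP53 at -0.333. In yeast, Rrp7 forms a module with casein kinase 2 and Utp22, and 4 human counterparts were tested: CSNK2A2 was at -0.33, NOL6 at -0.19, CSNK2B at -0.01 and CSNK2A1 at 0.05. CSNK2A2, a catalytic subunit of casein kinase 2, had all 3 values with CT16 siRNA below the 3 with control siRNA and a limma adjusted p of 0.483.

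**Figure D3:**
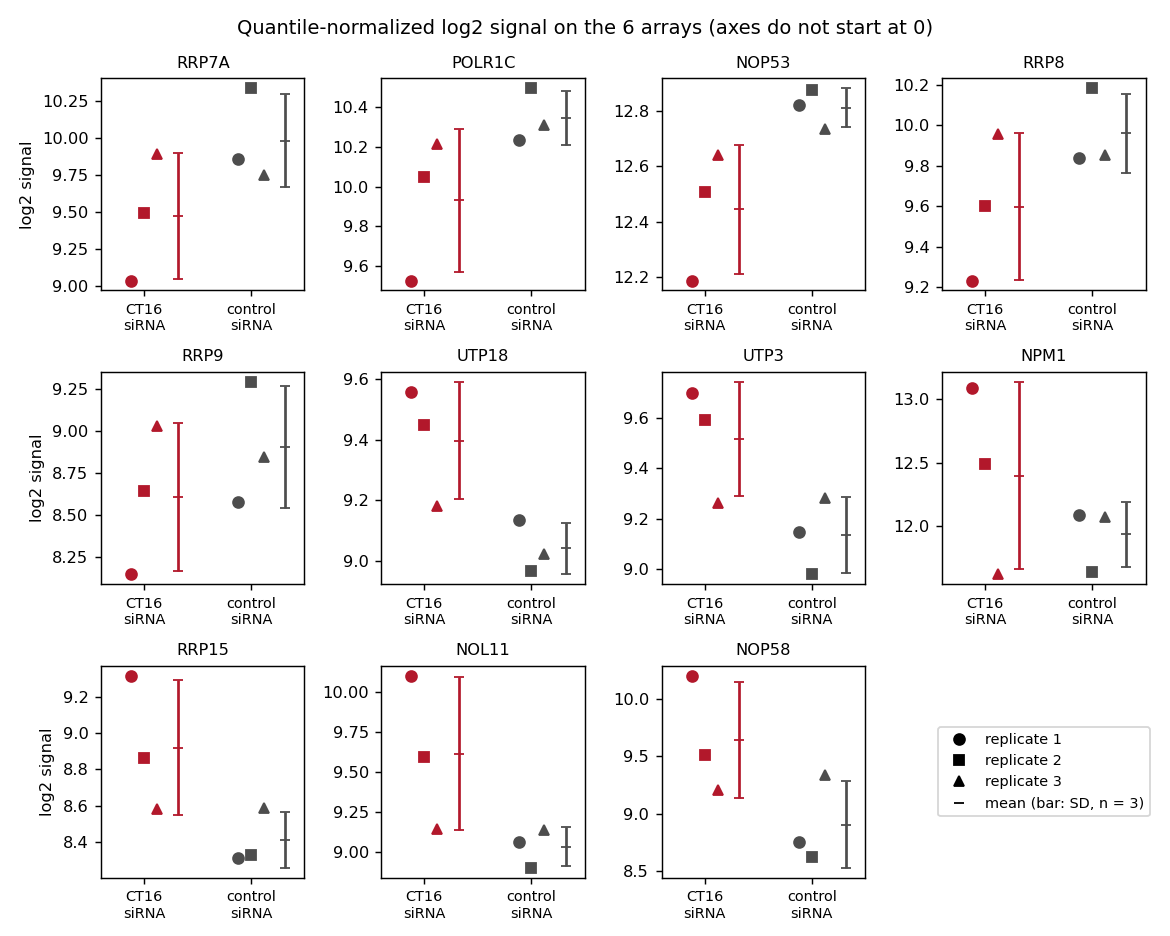
Quantile-normalized log2 signal (y axis) on the 6 arrays for the 11 members described in full, with CT16 siRNA to the left of control siRNA. Symbols mark replicates 1 to 3 and the bars give the mean and SD (n = 3). In most panels CT16 siRNA replicate 1 is the most extreme array and CT16 siRNA replicate 3 lies near the control arrays.

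The other small subunit factors lay on both sides of 0. Of 17 small subunit genes tested, RRP7A included, 10 were above and 7 below 0, with a median of 0.05, and after a median shift 4 were below 0 and 6 below the median of all probes. NOL11, a member of the subcomplex that links Pol I transcription to processing, had log2 signals of 10.10, 9.60 and 9.15 with CT16 siRNA and 9.06, 8.90 and 9.14 with control siRNA. The groups did not overlap, but CT16 siRNA replicate 3 exceeded the highest control array by less than the spread among the control arrays. Before normalization CT16 siRNA replicate 3 (560.9) was below control siRNA replicate 3 (570.4). The difference was 0.58 (standard error 0.22), or 1.496-fold higher, with a limma adjusted p of 0.4997 and a rank product FDR of 0.1004, just short of the threshold. Without CT16 siRNA replicate 3 the difference was 0.82 and the limma adjusted p was 0.0485, the only call of a member by limma in any setting run.

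UTP18, a WD-repeat protein of the processome, had log2 signals of 9.56, 9.45 and 9.18 with CT16 siRNA and 9.13, 8.97 and 9.02 with control siRNA. These groups did not overlap either, and the difference was 0.36 (standard error 0.12, limma adjusted p 0.481). UTP3, the human counterpart of yeast Sas10, had 9.70, 9.59 and 9.26 with CT16 siRNA and 9.15, 8.98 and 9.28 with control siRNA, which differ by 0.38 (standard error 0.14, limma adjusted p 0.486). Here control siRNA replicate 3 was above CT16 siRNA replicate 3. UTP23, UTP11 and UTP14C lay between 0.30 and 0.36, and UTP14C was above background on 3 arrays with CT16 siRNA and 2 with control siRNA. UTP14C is a retrotransposed copy of UTP14A, which itself was at -0.05, and whether their probes share transcripts was not tested.

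At the lower end, RRP9, which binds the U3 small nucleolar RNA, had log2 signals of 8.14, 8.64 and 9.03 with CT16 siRNA and 8.58, 9.29 and 8.84 with control siRNA. The groups overlapped over most of their range, and the difference was -0.30 (standard error 0.26, limma adjusted p 0.673). NOL6, the counterpart of yeast Utp22, was the only gene whose 2 probes disagreed in sign, at -0.19 for the brighter and 0.07 for the dimmer probe. The remaining small subunit genes lay between -0.16 for NOP14 and 0.11 for UTP6.

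Large subunit factors had 8 of 11 genes below 0 and a median of -0.06. This split rested on CT16 siRNA replicate 1: without that array 4 of 11 were below 0 and the median was 0.10, and after a median shift 2 of 11 were below 0 and 5 of 11 below the median of all probes. RRP15, an assembly factor of the large subunit, was the highest of them, with log2 signals of 9.32, 8.86 and 8.58 with CT16 siRNA and 8.31, 8.33 and 8.59 with control siRNA. CT16 siRNA replicate 3 and control siRNA replicate 3 were level, so the groups overlapped. The difference was 0.51 (standard error 0.19), or 1.43-fold higher, with a limma adjusted p of 0.486 and a rank product FDR of 0.149.

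NOP53, which in yeast acts in the maturation of the large subunit, had log2 signals of 12.19, 12.51 and 12.64 with CT16 siRNA and 12.82, 12.88 and 12.74 with control siRNA. In these normalized values every array with CT16 siRNA was below every control array. Before normalization CT16 siRNA replicate 3 (7472) was above control siRNA replicates 1 (5960) and 3 (7229). The difference was -0.37 (standard error 0.13), or 1.29-fold lower, with a limma adjusted p of 0.483. RRP8, a nucleolar methyltransferase, had 9.23, 9.60 and 9.96 with CT16 siRNA and 9.84, 10.18 and 9.86 with control siRNA, which gave a log2 difference of -0.36 (standard error 0.19, limma adjusted p 0.559). CT16 siRNA replicate 3 lay inside the control range. The 3 subunits of the PeBoW complex, which is needed for maturation of the large subunit rRNA, were at -0.16 for PES1, -0.12 for BOP1 and -0.05 for WDR12, and those of PES1 and BOP1 turned positive without CT16 siRNA replicate 1. NOL8 was at 0.30, but it was above background on 3 arrays with CT16 siRNA and on only 1 with control siRNA, so it passed the filter through the group where it was higher. The other 4 large subunit genes (NOP2, NOP16, NOL9 and NOL12) lay between -0.06 and 0.04.

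NOP58 rose with CT16 siRNA by the rank product (FDR 0.0262) and had the highest difference of all members. With NOP56 and the methyltransferase FBL it forms the protein core of box C/D ribonucleoproteins, which methylate rRNA. Its log2 signals were 10.20, 9.51 and 9.21 with CT16 siRNA and 8.75, 8.63 and 9.34 with control siRNA. Control siRNA replicate 3 lay above CT16 siRNA replicate 3, so the groups overlapped. The difference was 0.74 (standard error 0.28), or 1.67-fold higher, with a limma adjusted p of 0.494. The rank product FDR was 0.613 with CT16 siRNA replicate 1 left out and 0.797 with CT16 siRNA replicate 2 left out, and the call was lost too with neqc (0.162) and with only the probes above background (0.128). Its partners in the particle were at 0.08 (standard error 0.14) for NOP56 and -0.10 (standard error 0.21) for FBL, and neither passed either test. FBL turned positive without CT16 siRNA replicate 1 and after a median shift. NOPCHAP1, a chaperone that helps NOP58 into the particle, was at 0.09 (standard error 0.10).

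Box H/ACA genes lay close to 0. The 5 genes tested lay between -0.09 for NHP2 and 0.12 for DKC1, the pseudouridine synthase, with 3 above and 2 below 0. Without CT16 siRNA replicate 1, and also after a median shift, 5 of 5 were above 0, though 2 of 5 were below the median of all probes after that shift. GAR1 had 2 probes, at 0.11 (standard error 0.10) and 0.24 (standard error 0.09). The dimmer of these was above background on 3 arrays with CT16 siRNA and 1 with control siRNA, so it passed the filter through the group where it was higher and its difference is set against values mostly not above background. NOP10 was at -0.01 and NOLC1, a chaperone of small nucleolar ribonucleoproteins, at 0.05.

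The abundant nucleolar chaperones NPM1 and NCL were both above 0. NPM1 had log2 signals of 13.09, 12.49 and 11.62 with CT16 siRNA and 12.09, 11.64 and 12.08 with control siRNA. CT16 siRNA replicate 1 was the highest and CT16 siRNA replicate 3 the lowest of the 6 arrays, and the difference of 0.46 had a standard error of 0.34 (limma adjusted p 0.628). NCL had 9.16, 9.20 and 8.63 with CT16 siRNA and 8.60, 8.62 and 8.75 with control siRNA, which differ by 0.34 (standard error 0.16, limma adjusted p 0.534). For NPM1 the RefSeq table lists 50 pseudogenes or related loci, so its signal is uncertain as a measure of 1 gene.

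Of the genes the symbol rule brought in, 5 were placed in none of the roles above, which does not mean that they act outside the pathway. They included NOL3, an inhibitor of apoptosis, at 0.07, and NOPCHAP1, the chaperone named above. These 5 genes lay between -0.10 for NOL4L and 0.26 for NOL7.

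In most members CT16 siRNA replicate 1 was an extreme array. It held the highest or the lowest of the 6 values in 35 of the 48 members (72.9%), against 63.4% of all probes. CT16 siRNA replicate 3 did so in 22 members (45.8%), against 39.8% of all probes. CT16 siRNA replicate 1 was the highest array in 14 of the 24 members above 0 and the lowest in 19 of the 24 below 0. The sign is that of a difference that includes this array, so these counts follow in part from the split. They were not set against all probes. The median log2 signal of the 5 Pol I genes, relative to each gene's mean over the 6 arrays, was -0.38, 0.11 and 0.08 with CT16 siRNA replicates 1, 2 and 3, and 0.03, 0.17 and 0.06 with control siRNA replicates 1, 2 and 3. For the 11 large subunit genes it was -0.34, 0.04 and 0.12 with CT16 siRNA and 0.00, 0.05 and 0.02 with control siRNA. In both roles a single array was low and the other 5 lay close together. For the 2 chaperones it was 0.63, 0.35 and -0.37 with CT16 siRNA and -0.15, -0.37 and -0.08 with control siRNA.

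**Figure D4:**
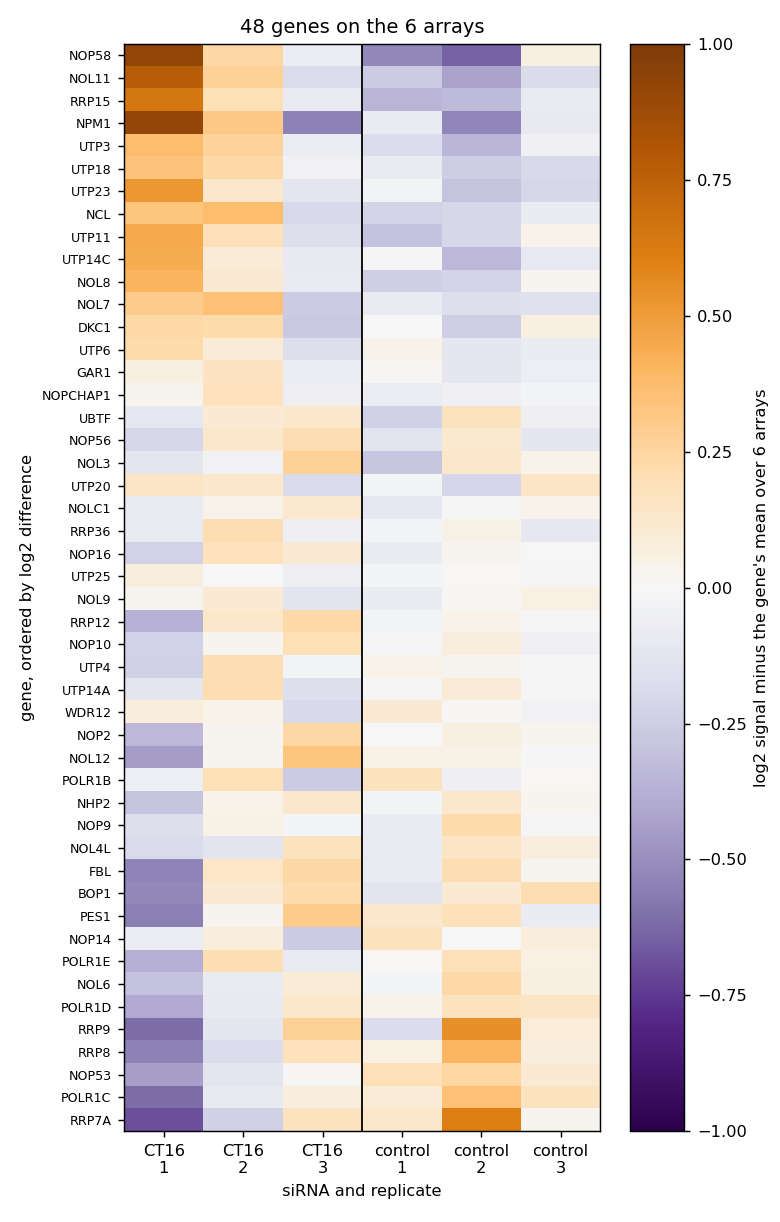
Log2 signal minus the gene's mean over the 6 arrays (colour) for the 48 members (rows, from the highest to the lowest difference) on the 3 CT16 siRNA and 3 control siRNA arrays (columns). CT16 siRNA replicate 1 holds the strongest colours, at the highest or lowest value in 35 of 48 rows, and CT16 siRNA replicate 3 holds the highest or lowest value in 22.

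Further genes of the pathway, outside the symbol rule, were read from the same fit, and limma called 0 of them at an adjusted p of 0.05. Of 16 other genes of Pol I transcription, 11 were above and 5 below 0, with a median of 0.06. POLR2K, a small subunit common to all 3 nuclear polymerases, rose by the rank product (FDR 0.0436). Its log2 signals were 11.47, 10.71 and 10.52 with CT16 siRNA and 10.25, 9.95 and 10.44 with control siRNA, without overlap. Of 34 other small subunit genes, 16 were above and 18 below 0 (median -0.01). TBL3, a WD-repeat protein of the processome, fell by the rank product (FDR 0.0831), with 8.25, 8.79 and 9.27 with CT16 siRNA and 9.22, 9.51 and 9.09 with control siRNA.

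Of 35 other large subunit genes, 21 were above and 14 below 0, with a median of 0.21. The 11 large subunit members had 8 below 0 and a median of -0.06. CEBPZ (0.73, FDR 0.0315), RSL24D1 (0.71, FDR 0.0452) and NSA2 (0.65, FDR 0.0726) rose by the rank product. RSL24D1 and NSA2 are assembly factors of the large subunit. In each of these 3 genes CT16 siRNA replicate 1 was the highest array and control siRNA replicate 3 exceeded CT16 siRNA replicate 3, so the groups overlapped. Of 13 genes of the RNA exosome and its cofactors, which trim rRNA ends, 9 were above and 4 below 0 (median 0.07), and 0 passed the rank product. The calls of POLR2K, CEBPZ, RSL24D1 and NSA2 held in 3 of the 6 settings with 1 array left out and that of TBL3 in 1, and each was lost when either CT16 siRNA replicate 1 or CT16 siRNA replicate 2 was left out, and also with neqc or with only the probes above background. With the replicate number as a block the FDR was 0.103 for POLR2K, 0.107 for RSL24D1 and 0.144 for NSA2, and after a median shift it was 0.714 for TBL3, so these calls were lost there too.

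**Figure D5:**
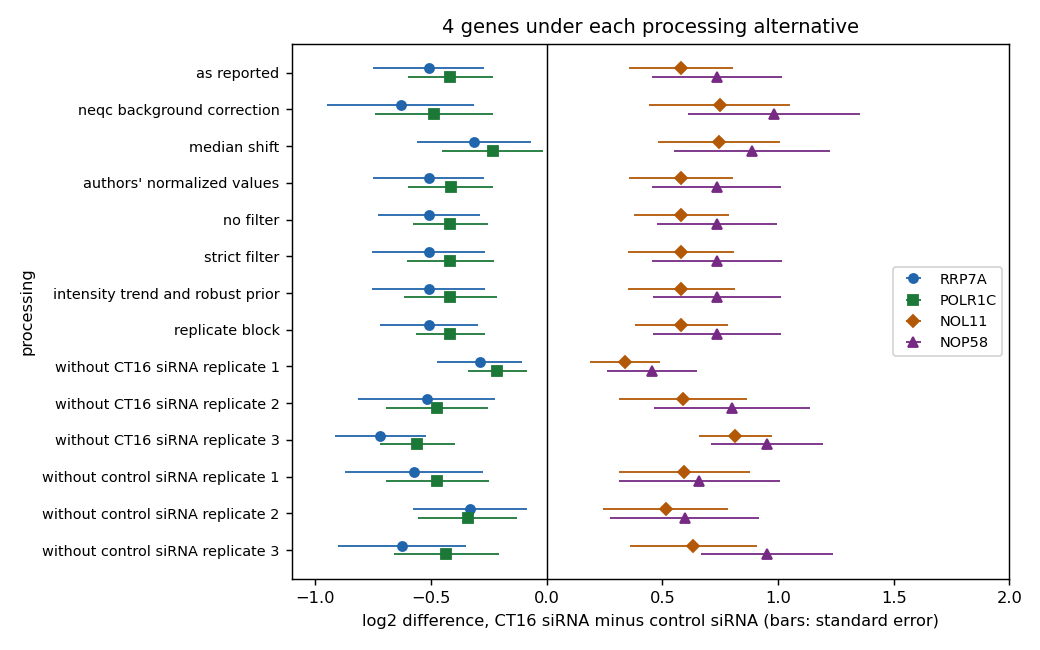
Log2 difference (CT16 siRNA minus control siRNA, x axis) of RRP7A, POLR1C, NOL11 and NOP58 under each processing alternative (y axis), with the standard error as bars. RRP7A and POLR1C stay below 0 and NOL11 and NOP58 above 0 in all 14 settings drawn, while RRP7A ranges from -0.72 to -0.29.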

How the data were processed

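Gene expression was compared between A2058 cells treated with CT16 siRNA and with control siRNA, 3 cultures and arrays per group as labelled. The authors deposited 1 signal intensity per probe and array (linear, averaged over beads, before normalization) and, in the column to its right, a detection p-value. They also deposited normalized intensity values (column medians 172.58 to 172.65), used as an alternative. The methods name quantile normalization. The arrays were scanned with BeadScan. How the beads were summarised, and the genome build, were not given in the sources used here.

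Of 47296 probes, 47289 held values, and 28821 had no gene name in the platform annotation. The log2 signal was quantile-normalized and fitted with limma 3.58.1 in R 4.3.3 (lmFit, eBayes, Benjamini-Hochberg adjustment) for 12082 probes with a detection p-value under 0.05 on at least 3 of 6 arrays. The rank product, which the study ran with RankProd, was rewritten in Python 3.11.15 (9 ratios, all probes, 100 permutations within arrays, fixed seed). Both scripts were tested on simulated data. Genes with several probes were represented by the brightest over the 6 arrays.

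Members and gene lists were chosen with earlier results of these data known. Described in full were RRP7A, the 5 highest and 5 lowest members, members called by either test, and those without overlap between the groups. NCL, and the genes of other lists past the rank product, were described further after their values were seen. Alternatives were the deposited normalized values, neqc (offset 16), a shift to a common median, omitting the filter, a filter at a detection p-value under 0.01 on 6 arrays (8046 probes), a robust prior with an intensity trend, the replicate block, all probes of a member, another seed and each array left out. Counts by role under these settings, and counts without overlap, were added after seeing the data. Figures were drawn with matplotlib 3.10.9.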

Additional observations from a re-analysis of the deposited data

How the results depend on the processing

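The differences of 15 of the 48 members changed sign after a median shift and those of 12 without CT16 siRNA replicate 1. The log2 differences of the 11 members described in full, and of POLR2K, TBL3, CEBPZ, RSL24D1 and NSA2, kept their sign under the limma alternatives, and no setting changed the limma call of a member except that NOL11 passed without CT16 siRNA replicate 3. After a median shift the median of the members was 0.15, 9 members were lower, and the rank product FDR of RRP7A was 0.504. That FDR was 0.587 with neqc and 0.194 with only the probes above background. Against 392 probes past the rank product FDR of 0.1 (190 higher, 202 lower with CT16 siRNA), the number was 152 with neqc (125 higher, 27 lower), 113 with only the probes above background (45 higher, 68 lower) and 259 with the replicate block (87 higher, 172 lower). The NOP58 FDR was 0.162 with neqc and 0.128 with only the probes above background. With 1 array left out at a time, limma called 0 to 195 probes (11 without CT16 siRNA replicate 1, 195 without the third) and 0 to 1 members, the member median was -0.042 to 0.101, the RRP7A FDR 0.00426 to 1.08, and the rank product called 126 to 949 probes, both ends through a CT16 siRNA array (126 without replicate 2, 949 without replicate 3). The causes were not tested. The replicate number as a block in limma left 0 calls. The deviations of same-numbered arrays from their group means correlated at 0.42, 0.02 and -0.41 for numbers 1, 2 and 3. With 3 arrays per group these correlations cannot show whether the number pairs the cultures. The number of arrays limits all values, and UTP20 was above background on only 3 arrays, NOL8 and NOP9 on 4.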
